A study of Mus musculus with 2 samples.

Results

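A divergent promoter is the stretch of DNA between the transcription start sites (TSSs) of neighbouring genes that lie on opposite strands and are transcribed away from each other. Here such promoters were studied in mouse haematopoietic stem cells as 689 accessible regions out of 31532 regions in the main peak list. A pair was kept when both genes were protein-coding and the 5′-most protein-coding start of the plus-strand gene lay 0 to 1000 bp to the right of that of the minus-strand gene, and a region was kept when it overlapped either TSS or the bases between them. The annotation held 777 such pairs, with 1538 of 21853 protein-coding genes (7.04%), and 15 of the 689 regions served 2 or more pairs that share a start, giving 704 combinations of region and pair. The choice used no signal value.

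Compact divergent promoters are a common arrangement in mammalian genomes, and many of them serve housekeeping genes such as those for DNA repair, mitochondrial proteins and histones. Most lie in CpG islands, lack a TATA box and can be bound by factors such as GABPA, an ETS protein, and NF-Y, which binds the CCAAT box. Open chromatin at such a promoter does not tell which of the genes is transcribed, because a single nucleosome-free stretch can serve both starts.

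The assay was ATAC-seq, which uses a transposase to cut and tag open DNA. The series has 1 group of 2 libraries, biological replicates 1 and 2, both from haematopoietic stem cells of C57BL/6J mice aged 5 to 6 weeks with no genetic change or treatment in the labels. The labels record 50000 starting cells for replicate 2, no sex, no sorting markers, and the same donor identifier for both libraries, so the spread between them may be technical. Only peak lists were used, so read depth is unknown, and the signal of a peak is the authors' value on a scale that the sources used here do not define.

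Of 14 stem and progenitor genes chosen as markers, 8 had the 5′-most TSS in a region (among them Kit, Flt3, Hlf and Meis1), and 6 did not (Ly6a, Procr, Mecom, Slamf1, Gata2 and Tal1). None of the 5 T cell, 4 B cell, 6 granulocyte and monocyte, or 4 erythroid markers had one. Replicate 1's own list held 34588 regions and replicate 2's held 22434.

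The sequences between the TSSs of 11 pairs are given first, because the results below turn on the letters in them. Each is the plus strand of mm10 (GRCm38), read 5′ to 3′ from the base after the minus-strand gene's TSS to the base before the plus-strand gene's TSS, and no annotated exon overlaps it. The first set shows an ETS motif, CCGGAAG on either strand, in capitals. Ptcd2/Mrps27 and Tmem209/Ssmem1 are among the 10 members of highest signal, and Sdhd/Timm8b and Aimp2/Pms2 are on a list of known bidirectional pairs.
Ptcd2/Mrps27, chr13:99344706-99344785: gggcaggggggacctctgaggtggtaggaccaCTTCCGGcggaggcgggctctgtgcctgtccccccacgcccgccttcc
Tmem209/Ssmem1, chr6:30509784-30509848: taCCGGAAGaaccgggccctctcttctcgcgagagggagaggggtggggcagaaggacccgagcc
Sdhd/Timm8b, chr9:50603813-50603909: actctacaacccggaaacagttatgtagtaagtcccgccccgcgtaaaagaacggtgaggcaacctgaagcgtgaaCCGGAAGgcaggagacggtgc
Aimp2/Pms2, chr5:143909848-143909963: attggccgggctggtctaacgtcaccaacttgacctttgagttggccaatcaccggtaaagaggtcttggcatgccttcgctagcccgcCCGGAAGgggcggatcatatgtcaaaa

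The second set shows CCAAT boxes, CCAAT on either strand, in capitals. It holds a member of very high signal, members with a DNA repair gene, and 2 pairs of H2A and H2B histone genes, which were picked after their values were seen.
Cetn2/Nsdhl, chrX:72918412-72918556: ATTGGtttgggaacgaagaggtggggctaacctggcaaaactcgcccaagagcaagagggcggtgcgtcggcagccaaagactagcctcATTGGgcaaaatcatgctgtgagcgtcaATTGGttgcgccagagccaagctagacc
Pms1/Ormdl1, chr1:53297019-53297094: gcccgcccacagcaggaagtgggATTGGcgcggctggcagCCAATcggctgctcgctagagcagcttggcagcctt
Rpa1/Smyd4, chr11:75348325-75348432: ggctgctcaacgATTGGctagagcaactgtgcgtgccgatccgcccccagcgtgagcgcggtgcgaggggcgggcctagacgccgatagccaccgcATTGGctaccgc
Hist1h2ac/Hist1h2bc, chr13:23683949-23684198: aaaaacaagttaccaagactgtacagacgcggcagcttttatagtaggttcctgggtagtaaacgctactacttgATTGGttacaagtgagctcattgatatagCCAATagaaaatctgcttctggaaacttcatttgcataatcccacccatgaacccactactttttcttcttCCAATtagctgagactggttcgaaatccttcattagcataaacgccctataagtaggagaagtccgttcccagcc
Hist1h2bf/Hist1h2ad, chr13:23574197-23574380: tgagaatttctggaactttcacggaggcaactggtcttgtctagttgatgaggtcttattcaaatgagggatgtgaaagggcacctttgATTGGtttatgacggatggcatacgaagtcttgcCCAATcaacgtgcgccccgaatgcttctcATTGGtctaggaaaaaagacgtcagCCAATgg

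The last set sets the member of highest signal beside a pair with no region in any list, and neither sequence holds either motif.
Fam3a/Ikbkg, chrX:74393273-74393289: cctcctccctctcctcc
Asb12/Pfn5, chrX:95557988-95558103: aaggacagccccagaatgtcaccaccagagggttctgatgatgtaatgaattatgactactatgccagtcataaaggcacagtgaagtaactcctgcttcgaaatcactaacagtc

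Most divergent pairs were accessible in these cells. A region lay at or between the TSSs of 699 of the 777 pairs, or 90.0% (95% Wilson interval 87.6 to 91.9; intervals cover counting error only). A single region covered both TSSs in 654 pairs (84.2%), and 5 pairs had each TSS in a region of its own. Counted by gene, 1342 of the 1538 genes in a pair (87.3%) had their TSS in a region, beside 44.3% of all protein-coding genes. In replicate 1's own list the share of genes in a pair was 88.0% beside 44.2% of all genes, and in replicate 2's own list it was 79.8% beside 38.2%.

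CpG content moved with this difference. Promoter windows of TSS ±100 bp were divided at a CpG ratio (observed over that computed from base composition) of 0.6. Among genes at or above it, 92.4% of those in a divergent pair (1217 of 1317; interval 90.8 to 93.7) had their TSS in a region. The share was 68.5% for lone genes (67.5 to 69.4), which have no opposite-strand start within 1000 bp upstream, and 76.8% for genes whose partner there is non-coding. A gene whose opposite-strand neighbour starts just downstream of its own start, so that the starts cross, can also count as lone. Below the ratio of 0.6 the shares were 56.6% of 221 genes in a pair (interval 50 to 62.9) and 13.4% of 10210 lone genes (12.7 to 14.1). The intervals of paired and lone genes thus did not overlap in either CpG class, and how far other properties of these genes move with the difference was not tested. The 2 genes of a pair are not independent counts, since 1 region covered both TSSs in 654 of 777 pairs. The intervals of paired genes may therefore be too narrow. A paired TSS can also lie in a region centred on its partner's TSS, and lone genes have no such partner upstream. How much this adds was not tested. Genes whose coding partner reaches the 1000 bp window only through another transcript had 92.4% in the CpG-rich class, the same share as the pairs.

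**Figure D1:**
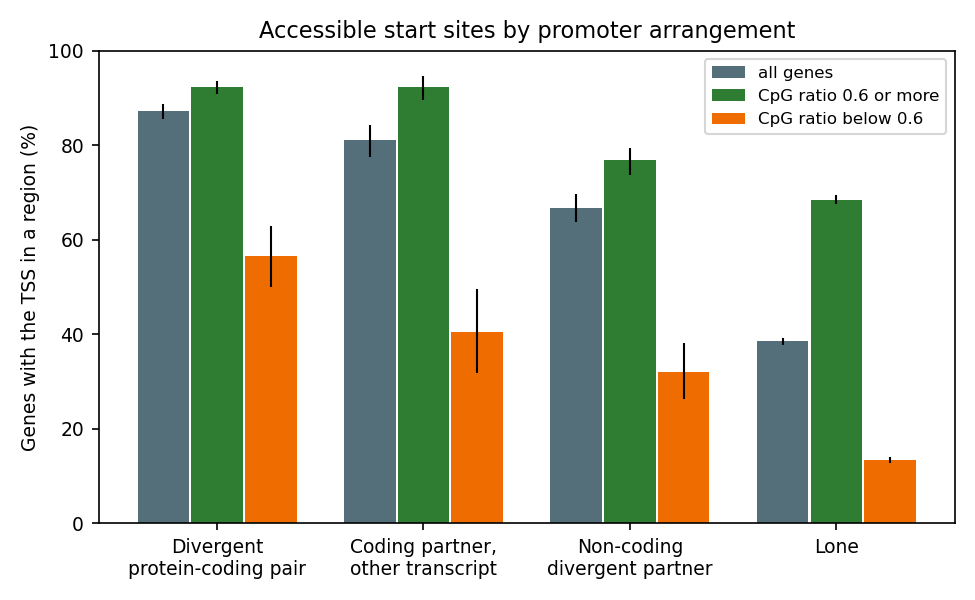
Share of protein-coding genes whose 5′-most TSS lies in a region of the main list (vertical axis, %), by the kind of opposite-strand start upstream and by CpG ratio of the TSS window (bar colour); error bars are 95% Wilson intervals. Genes in a divergent pair have 87.3% in all and 56.6% in the CpG-poor class, where lone genes have 13.4%.

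The share of genes that sit in such pairs differed between gene lists. Of 70 DNA repair genes, 22 (31.4%) belonged to a divergent pair, against 7.04% of all protein-coding genes, and 20 of these 22 had their TSS in a region, near the 87.3% of all genes in a pair. Mitochondrial proteins were also frequent. The pairs included 20 of 78 mitochondrial ribosomal protein genes and 13 of 46 genes of complex I, the first enzyme of the respiratory chain, with 19 and 13 TSSs in a region. RNA polymerase subunits gave 8 of 29 and cell cycle and replication genes 8 of 62, with every one of these 16 TSSs in a region. Cytosolic ribosomal protein genes gave 10 of 102, with 8 of the 10 TSSs in a region. Genes of the same lists outside a pair also mostly had their TSS in a region, beside 8333 of all 20315 genes outside a pair. The counts were 42 of 48 for DNA repair, 55 of 58 for the mitochondrial ribosome and 29 of 33 for complex I. For RNA polymerases they were 20 of 21, for cell cycle and replication 52 of 54 and for the cytosolic ribosome 73 of 92.
No pair contained any of 60 blood regulator genes, any of 29 tissue-specific genes or any of 1134 olfactory receptor genes. Of 397 genes named Zfp (mostly zinc finger proteins), 19 were in a pair. These shares describe the annotation, not the cells.

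Among 25 gene pairs listed as known bidirectional promoters, 13 met the distance and orientation rule. Of these, 12 had a region, near the 90.0% of all 777 pairs. The exception was Col4a4/Col4a3, which encodes collagen chains of kidney basement membrane; it had a region only in the more permissive lists. Aimp2/Pms2, with the mismatch repair gene Pms2, had signals of 13.2 in replicate 1 and 10.4 in replicate 2. Brca1/Nbr1, with the homologous recombination gene Brca1, had 10.3 and 11.1, and its summit lay 525 bp inside Nbr1. Mcm4/Prkdc, with a replicative helicase subunit and a kinase of DNA end joining, had 11.4 in the main list. Several listed pairs failed the rule because their annotated starts cross, among them Hspd1/Hspe1 by 111 bp. In all, 390 pairs crossed by 1 to 1000 bp, and 332 of them (85.1%; interval 81.3 to 88.3) had a region; this count was added after the data were seen.

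The members described next are the 10 of highest signal with a blood, repair or cell cycle gene. Mospd2/Fancb ranked first; Fancb encodes a subunit of the Fanconi anaemia core complex, which acts on DNA crosslinks. Its signals were 13.5 in replicate 1 and 16.5 in replicate 2, an order that few members share. Rpa3/Umad1 and Rpa1/Smyd4 each carry a subunit of replication protein A, the single-stranded DNA binding complex. The values were 14.3 and 14.6 for Rpa3/Umad1, and 15.8 and 10.8 for Rpa1/Smyd4. Replication licensing was represented by Prpf38a/Orc1, with 14.1 and 12.9, and Orc3/Rars2, with 13.5 and 11.6, in which the starts are 13 bp apart. Atm/Npat joins the DNA damage kinase ATM to NPAT, a coactivator of histone genes, across 307 bp, and had 14.3 and 12.6. The remaining members of this group were Trmt6/Mcm8, Pms1/Ormdl1, Ccnb1ip1/Parp2 and Ndufaf2/Ercc8, with 14.3 to 15.6 in replicate 1 and 9.04 to 11.8 in replicate 2.

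The 10 members of highest signal reached 15.7 to 18.7 in the main list. Fam3a/Ikbkg came first at 18.7, with 18.5 in replicate 1 and 15.4 in replicate 2. Ikbkg encodes NEMO, the regulatory subunit of the kinase that activates NF-κB, and the starts of the pair are 18 bp apart. Cetn2/Nsdhl, a centrin gene and a cholesterol synthesis gene, followed at 17.5, with 15.8 in each replicate. Calr3/1700030K09Rik and Zfp169/A830005F24Rik both had 17.4. Both of these hold the ZNF143/THAP11 motif described below in the summit window. Hepacam2/Vps50 had 19.2 in replicate 1 and 12.0 in replicate 2. In Ptcd2/Mrps27, a pair of genes for mitochondrial RNA and ribosome proteins, the values were 18.5 and 9.96.

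The order at the top therefore depends on the library: Hepacam2/Vps50 led in replicate 1 and Mospd2/Fancb in replicate 2. Of the 10, 3 lie on the X chromosome (Fam3a/Ikbkg, Cetn2/Nsdhl and Mtcp1/Brcc3). The 15 members on X had a median signal of 11.4, and the 674 on autosomes had 10.4. Lone promoter regions showed a like difference, with 11.9 on X and 9.80 on autosomes.

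Starts can also coincide. In Nsa2/Gfm2, a ribosome biogenesis gene and a mitochondrial translation factor gene, both 5′-most starts are annotated at the same base, so the 0 bp spacing leaves no sequence between them. The region there had signals of 17.5 in replicate 1 and 12.0 in replicate 2. In Bag4/Lsm1, a chaperone regulator and an mRNA decay gene with starts 1 bp apart, the values were 11.7 and 11.1. Dhrs1/Nop9 and Slc7a6os/Prmt7 both have starts 3 bp apart. Dhrs1/Nop9 had 8.17 and 4.49, the latter only in replicate 2's pseudoreplicated list, and Slc7a6os/Prmt7 had 13.9 and 8.58. The tightest pairs thus included both high and low signals.

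A few members sat at the low end. Brd2/H2-DMa had the lowest signal, 3.64, and Gm49661/Prdx2, with the peroxidase gene Prdx2, had 3.79. Gm49661/Prdx2 was the only member found in neither the thresholded nor the pseudoreplicated list of replicate 2, where pseudoreplicated lists are the more permissive calls. It was also outside replicate 1's thresholded list. Overlap was counted anywhere along the region. In B3galt6/Sdf4 and Fbxo44/Fbxo2, for example, no region of these replicate 2 lists lay at or between the TSSs. All pairs of this paragraph were named partly after their values were seen.

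Divergent regions were wider than those of lone genes. Their median width was 1001 bp (quartiles 824 and 1208), against 866 bp (682 and 1066) for the 6998 promoter regions of lone genes and 598 bp for all regions. Like classes had like widths, with 924 bp for regions whose divergent partner is non-coding, 1011 bp where a coding partner starts within 1000 bp only through another transcript, and 1009 bp at the crossing pairs. A wide region reaches a pair's interval more readily, so the rule itself bears on this value. How much of the width comes from the rule was not tested. Within the members, all of which had passed the rule, width hardly followed the TSS distance (Spearman's rho 0.082 over 689 regions). A region that covered both TSSs ran a median of 424 bp into the minus-strand gene and 412 bp into the plus-strand gene, and regions of lone genes ran 476 bp into the gene and 362 bp upstream.

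Their median signal was 10.4 (8.84 and 12.2), at percentile 75.6 of all regions, and 9.87 (7.71 and 12.0) in lone promoter regions, at percentile 69.7. With only regions at or above a CpG ratio of 0.6 in the summit window the percentiles were 75.9 and 71.6. The quartiles overlap widely, and the gap was larger at the lower quartile, with percentiles of 57.2 in divergent and 40.5 in lone regions. Width and signal, which rose together over all regions (rho 0.360, n = 31532), hardly did so in members (rho 0.052, n = 689).

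Summits, the points of highest signal, lay between the genes in 405 of 689 regions (58.8%; interval 55.1 to 62.4), and 142 summits lay inside the minus-strand gene and 142 inside the plus-strand gene. Neither direction prevailed, with 344 summits to the left of the midpoint and 345 at or to the right of it. The measures of position differed with the spacing of the starts, which itself bears on them. A short interval holds fewer points, and in a widely spaced pair a summit near a TSS is far from the midpoint. How much of the difference comes from this was not tested. At 0 to 100 bp only 38.3% of summits lay between the TSSs (103 of 269 combinations of region and pair), and above 100 and up to 200 bp 68.4% did (130 of 190). At 0 to 100 bp the summit lay a median of 35.5 bp from the midpoint (263 regions), and above 500 bp it lay 326 bp away (64 regions). Over the same range of spacings above 100 bp, the summit stayed 33.0 to 53.0 bp upstream of the nearer TSS in the median. At 0 to 100 bp this median was -10.0 bp, which lies inside the gene, and over all 689 members it was 13.0 bp. In lone genes the median summit was 30.0 bp upstream of the TSS. That value is taken from the gene's own TSS, not from whichever TSS of a pair is nearer, so the measures are not directly comparable. Above 500 bp, 41 of 64 summits (64.1%; 51.8 to 74.7) lay within 100 bp of a TSS, and at 0 to 100 bp 227 of 263 did (86.3%), where the short spacing itself keeps most points near a TSS.

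**Figure D2:**
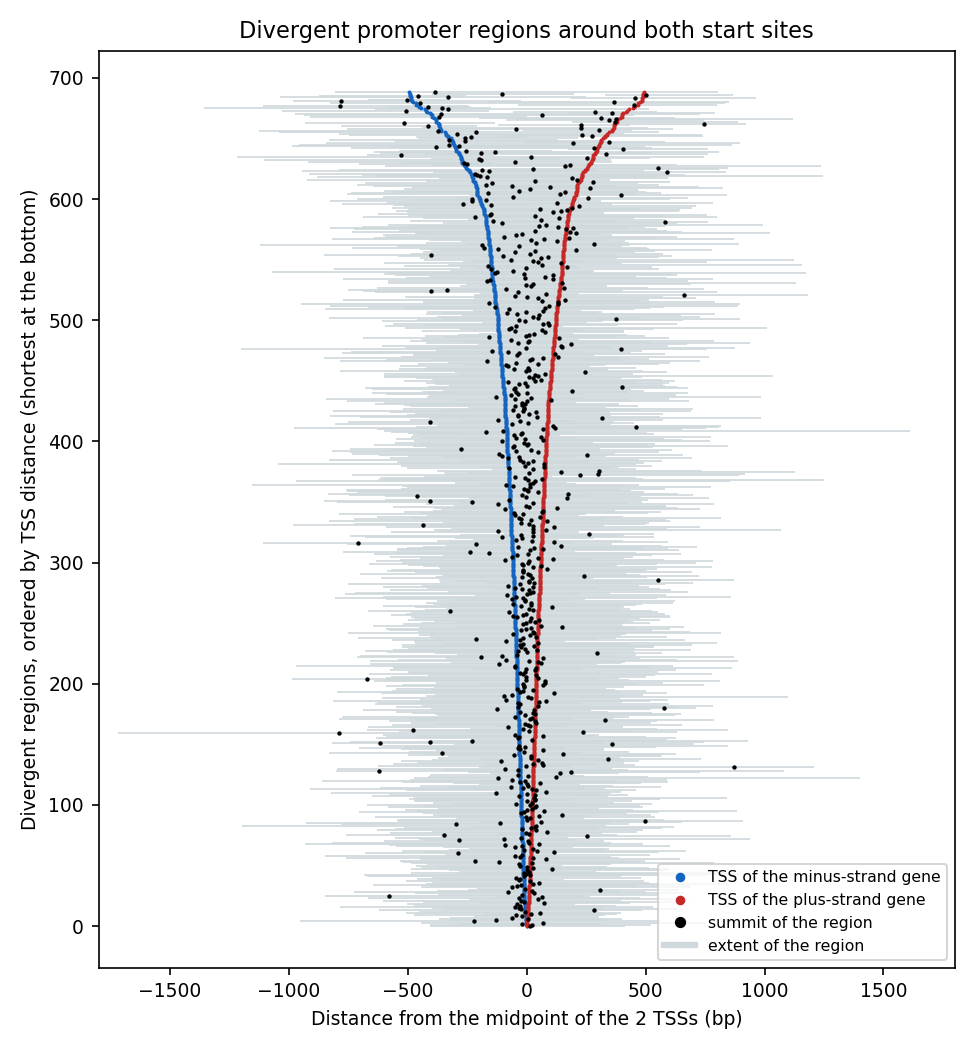
Each of the 689 divergent regions as a horizontal line from its start to its end, placed by distance from the midpoint of its 2 TSSs (horizontal axis, bp) and ordered by TSS distance (vertical axis, rank); coloured points mark the TSSs and black points the summits. Summits crowd around the midpoint in closely spaced pairs and farther from it in the widest ones, where the median distance from the midpoint is 326 bp.

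Shared coverage was lost at long spacing. Of the pairs with starts 0 to 100 bp apart, 92.1% had both TSSs in 1 region (269 of 292; interval 88.5 to 94.7), and above 300 and up to 500 bp the share was 87.1% (78.3 to 92.6). Above 500 bp it was 33.3% (26 of 78; 23.9 to 44.4), while 78.2% of these pairs still had a region. All 5 pairs with 2 regions fell in this last class, among them Cep170/Sdccag8, Lamtor2/Ubqln4, Zfyve26/Rad51b and Fig4/Ak9. In Zfyve26/Rad51b, which holds the recombination gene Rad51b, the starts are 978 bp apart. The region at Zfyve26 had 8.11 in replicate 1 and 9.46 in replicate 2, and the one at Rad51b had 7.65 and 6.77.

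Near the limit of 1000 bp, Btf3l4/Txndc12 (987 bp) had 1 region of 1611 bp over both TSSs, with 10.9 and 9.1 in the replicates. Asphd1/Sez6l2 (981 bp) had a region between the TSSs that covered neither, the only such member, with 12.8 and 5.86. Just outside, Ddias/Prcp (1005 bp) had a region of signal 7.51, and 5330417C22Rik/1700013F07Rik (1005 bp) and Serpina7/4930513O06Rik (1007 bp) had none.

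**Figure D3:**
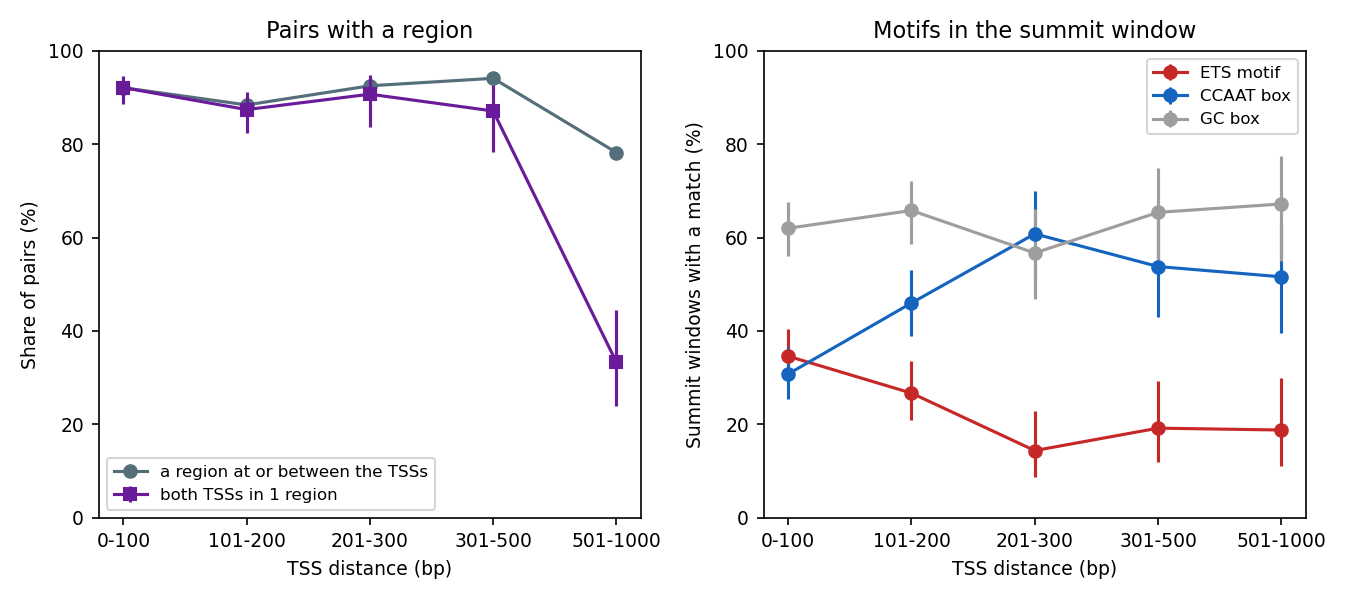
Left, share of the 777 divergent pairs with a region (circles, no interval drawn) and with both TSSs in 1 region (squares), by TSS distance (bp); right, share of the 689 summit windows with an ETS, CCAAT or GC-box match, by TSS distance; bars are 95% Wilson intervals. Shared coverage falls to 33.3% above 500 bp, and up to 300 bp the ETS share falls while the CCAAT share rises.

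In 39 pairs only 1 of the TSSs was in a region, and these single-sided pairs were mostly widely spaced (29 of 39 above 500 bp). The covered start belonged to either kind of gene in the examples that follow, and expression was not measured. In Actn3/Zdhhc24 the covered start was that of the palmitoyltransferase gene Zdhhc24 and the uncovered one that of Actn3, a muscle actinin, with signals of 15.1 and 10.7 in the replicates. In Foxa3/Sympk the start of Sympk, an RNA 3′-end processing gene, was covered, and that of the liver and gut factor gene Foxa3 was not (10.9 and 6.24). In Tas1r1/Nol9 the covered start was that of the ribosome biogenesis gene Nol9, not that of the taste receptor gene Tas1r1 (13.0 and 5.56). In Sirt1/Dnajc12 and Hnrnpdl/Enoph1 the start of the broadly expressed gene Sirt1 or Hnrnpdl was the uncovered one. These pairs were picked from the 39 after their values were seen.

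The 78 pairs without a region fell into different kinds. For 41 of them another deposited list had one, and in this group the larger CpG ratio of the pair was at least 0.6 in 35 of 41. The other 37 had none in any list, and only 14 of these 37 (37.8%; interval 24.1 to 53.9) reached 0.6, against 673 of the 699 pairs with a region (96.3%; 94.6 to 97.4). The 37 held genes of narrow and of broad use. Among them were Best1/Rab3il1, with the retinal channel gene Best1, Bhmt2/Dmgdh, with genes of liver betaine metabolism, Aspa/Spata22, with an aspartoacylase gene and a meiosis gene, and Asb12/Pfn5, whose sequence above has a GC content of 44.0%. Their starts are 36, 131, 145 and 117 bp apart. Ccnt1/4930415O20Rik, with the cyclin gene of an elongation factor kinase, Rnf151/Rps2, with a ribosomal protein gene, and Pinlyp/Xrcc1 and Rad51c/Tex14, each with a DNA repair gene, were also among the 37, and the last 3 were named after their values were seen. A pair outside the lists is not shown to be closed, since read depth is unknown. Only the 5′-most protein-coding start of each gene was used, so a region at another start of these genes can be missed.

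Short motifs were searched on both strands in windows of the summit ±100 bp. A match is a run of letters, not a bound site, and members share base composition with other promoters. The ETS motif CCGGAAG was in 26.4% of divergent windows (182 of 689; interval 23.3 to 29.8), 16.9% of lone promoter windows (16.0 to 17.8) and 7.74% of all windows. The CCAAT box was in 43.7% (40.0 to 47.4), 35.3% (34.2 to 36.4) and 25.2%. The ZNF143/THAP11 letters ACTACAA were in 7.26% (5.55 to 9.44), 4.02% (3.58 to 4.50) and 2.35%. For these 3 motifs the divergent and lone intervals did not overlap. Promoter windows whose divergent partner is non-coding had ETS in 20.9% (interval up to 24.1) and CCAAT in 41.3% (37.7 to 45.1), with intervals that overlapped those of the members, and ACTACAA in 2.50% (1.57 to 3.97). The shares depend on the window. In summits ±250 bp, whole regions and the bases between the TSSs, ETS was in 36.1%, 46.2% and 18.7% of members, CCAAT in 55.4%, 69.7% and 56.9%, and ACTACAA in 9.29%, 13.6% and 7.73%.

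The GC box GGGCGG, a site type of SP and KLF factors, was in 63.1% of divergent and 62.7% of lone windows, and in 28.6% of all windows. NRF1 (GCATGCGC), YY1 (AAGATGGC), the cyclic AMP element (TGACGTCA) and ZBTB33 (CTCGCGAG) were each in 2.47% to 5.95% of divergent windows, with intervals that overlapped those of lone windows. The E-box CACGTG was in 8.13% and 8.82%, and AGGGGGC, letters of the CTCF motif, in 10.4% and 13.9%.

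Motifs of blood cell factors were sparse in promoter windows of every class. RUNX letters (TGTGGT) were in 5.37% of divergent windows (3.92 to 7.31), in 9.09% of lone windows (8.44 to 9.78) and in 23.1% of all windows. This share too depends on the window, with 16.5% of members in summits ±250 bp and 32.8% in whole regions. The PU.1 motif GAGGAAGT was in 2.47% of divergent windows, GATA letters (AGATAA) in 1.60% and the AP-1 motif TGANTCA in 1.74%. In lone promoter windows these shares were 2.94%, 2.07% and 2.90%, and over all windows 7.85%, 6.53% and 7.64%. TATAAA was in 13 of 689 divergent windows (1.89%), 2.73% of lone and 4.73% of all windows.

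**Figure D4:**
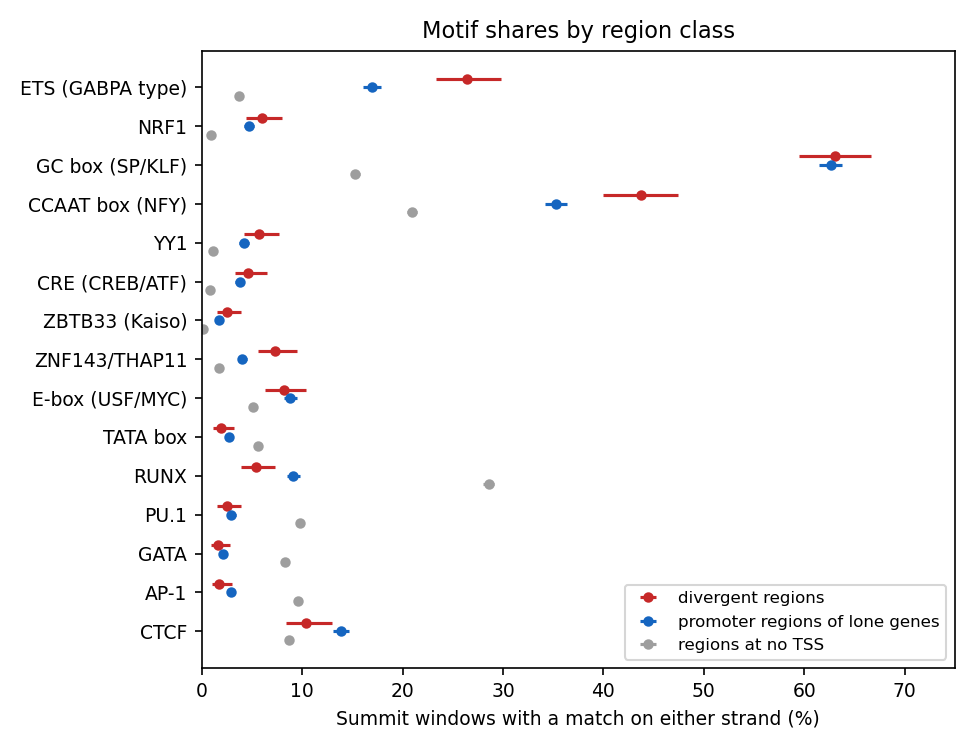
Share of summit windows (±100 bp) with each motif on either strand (horizontal axis, %) in 689 divergent regions, 6998 promoter regions of lone genes and 22840 regions at no TSS. Bars are 95% Wilson intervals. Here no TSS means that the region covers no 5′-most protein-coding TSS, so starts of non-coding genes or of other transcripts can lie in it. Divergent windows have the larger ETS (26.4%) and CCAAT (43.7%) shares, and regions at no TSS the larger RUNX, PU.1, GATA and AP-1 shares.

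ETS and CCAAT letters differed with the spacing of the starts. The ETS share was 34.6% at 0 to 100 bp (91 of 263; 29.1 to 40.5) and 14.4% above 200 and up to 300 bp (14 of 97; 8.80 to 22.8). At the 2 wider spacings, up to 500 and up to 1000 bp, it was 19.2% (12.0 to 29.3) and 18.8% (11.1 to 30.0), with intervals that just overlapped that of the shortest spacing. The CCAAT share was 30.8% (25.5 to 36.6) at 0 to 100 bp, 60.8% (50.9 to 69.9) above 200 and up to 300 bp, and 53.8% (42.9 to 64.5) and 51.6% (39.6 to 63.4) at the 2 wider spacings. Without the histone pairs, an alternative added after the data were seen, the CCAAT share above 200 and up to 300 bp was 57.3% (46.9 to 67.1). The median GC content of the windows was 64.7% at 0 to 100 bp and 61.7% above 200 and up to 300 bp. Windows with both motifs numbered 68, and their median signal was 12.2. Those with ETS alone had 10.1 (114 windows), those with CCAAT alone 10.8 (233) and those with neither 9.81 (274).

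Around the 1342 covered TSSs of divergent genes, the motifs differed in place. CCAAT lay in the 100 bp upstream of 31.1% of the TSSs and in the first 100 bp of the gene in 10.4%. For ETS these shares were 16.1% and 10.7%. YY1 was the other way round, with 1.86% upstream and 4.84% inside. In 7221 covered TSSs of lone genes the CCAAT shares were 25.2% and 8.49%, and the ETS shares were 9.60% and 8.74%. The YY1 shares there were 0.776% and 4.18%. Each TSS of a pair was counted on its own. At short spacings the bases upstream of a start therefore reach into the partner gene, and the same match can count for both genes.

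Histone gene pairs had narrow, AT-rich regions with CCAAT boxes. There were 14 pairs with a histone gene, 13 of them with histone genes on both sides, and 13 of the 14 had a region. All 13 regions were in both replicates' thresholded lists, where members as a whole had 99.3% and 93.3%. All had the summit between the TSSs, as did 58.8% of members. The histone pairs had a median spacing of 260 bp. Above 200 and up to 300 bp, 74.7% of summits (74 of 99 combinations of region and pair) lay between the TSSs. The histone regions had a median width of 445 bp, against 1001 bp for all members. The GC content of their windows had a median of 44.3%, against 63.7%. Median signals were 9.37 in replicate 1 and 8.01 in replicate 2. CCAAT was in 13 of 13 windows, the ETS motif in 0 of 13, and 4 of the 13 TATAAA windows of all members were theirs. Many of these genes are near-identical copies, so how reads were divided among them is uncertain.

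The CCAAT boxes of the histone pairs come in arrays, as the printed sequences show, with 3 between Hist1h2ac and Hist1h2bc and 4 between Hist1h2bf and Hist1h2ad. Among pairs with starts above 100 and up to 300 bp apart, all 11 with a histone gene had 2 to 5 CCAAT letters between the TSSs. In other pairs with a region, 48.6% of 278 had at least 1 and 11.5% had at least 3. The only histone pair without a region was Hist1h2ba/Hist1h2aa, which encodes the H2B and H2A variants of the testis. It had none in any list.

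Of the 689 regions, 684 (99.3%) overlapped replicate 1's own thresholded list, beside 84.6% of all regions, and 643 (93.3%) overlapped replicate 2's, beside 65.3%. For lone promoter regions these shares were 95.4% and 86.1%. The main list was made from both libraries, so such overlap is partly built in. Any shared base counted, which favours wide regions, and members had a median width of 1001 bp beside 598 bp for all regions. Regions whose divergent partner is non-coding had 91.3% in replicate 2's list (89.0 to 93.2), and those with a coding partner through another transcript had 91.7% (88.2 to 94.2), near the members' share. When all regions were divided into 4 equal classes by main signal, from lowest to highest, the replicate 2 share of members was 50% (26 of 52), 83.9% (73 of 87), 97.5% (195 of 200) and 99.7% (349 of 350). The lone promoter regions had 47.3%, 79.8%, 92.1% and 98.7%. In the lowest class the regions with a non-coding partner had 59.1% (52 of 88) and those with a coding partner through another transcript 66.7% (22 of 33).

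The 46 members outside replicate 2's thresholded list had a median signal of 7.73 in replicate 1 and 4.67 in replicate 2. Counted by pair, 645 of 777 had a region in both replicates' own lists, 61 only in replicate 1's, 5 only in replicate 2's and 66 in neither.

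Signals were higher in replicate 1 for 654 of 688 members with a value in both, with a median ratio of 1.35 (quartiles 1.18 and 1.57). Median signals were 11.7 and 8.54 over the 640 members in both thresholded lists, where Spearman's rho was 0.639, and 0.715 over 5915 lone promoter regions, as descriptions over regions that share the 2 libraries. Lone promoter regions in both lists had medians of 11.4 and 8.16, and all regions in both lists had 10.5 and 7.49. The higher signal in replicate 1 was thus not particular to members. The summits of the replicates lay within 50 bp of each other in 78.3% of 640 members. The median gap between these summits was larger in members than in lone promoter regions or over all regions. Members that stood high in replicate 2 relative to replicate 1 included Mospd2/Fancb, Zfyve26/Rad51b (9.46 against 8.11), Atg12/Ap3s1 (10.6 against 9.06) and Aasdhppt/Kbtbd3 (9.78 against 8.63). Atg12 encodes an autophagy conjugation protein.

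**Figure D5:**
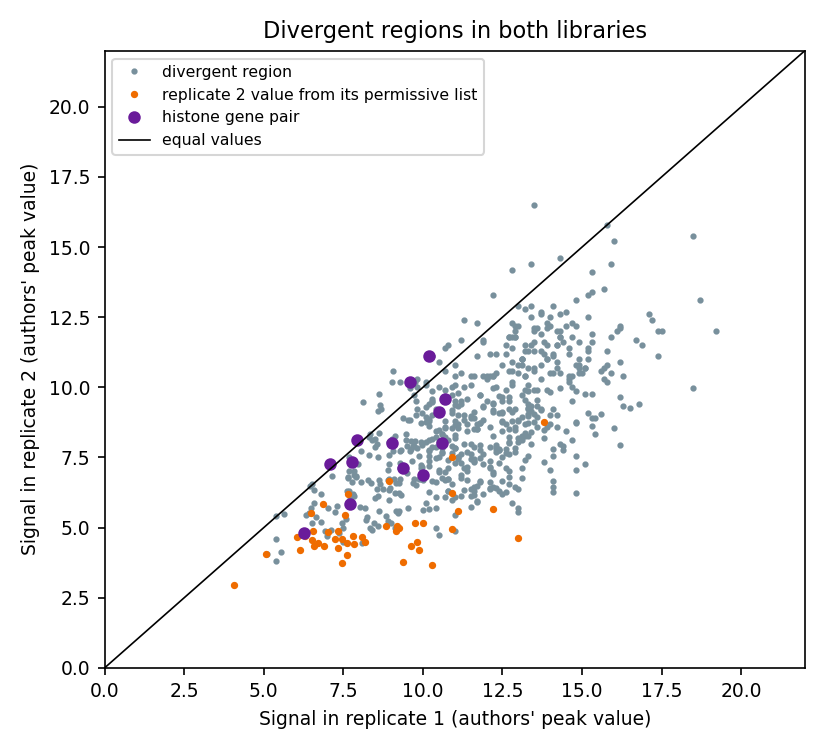
Signal of each divergent region in replicate 1 (horizontal axis) and replicate 2 (vertical axis), both the authors' peak values; orange points take the replicate 2 value from its pseudoreplicated list and purple points are histone pairs. Of 688 regions, 654 lie below the line of equal values.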

How the data were processed

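The authors deposited ENCODE peak lists with a signal value per peak, whose control and scaling are not stated, on the mm10 build named in the labels. Which aligner and which peak caller were used is not given in the sources used here. The 12 lists comprise each replicate's own and those of both libraries, and the main list was the conservative one thresholded on the irreproducible discovery rate. Its 53241 peaks were merged where they overlapped into 31532 regions, each with the signal and summit of its highest peak. No peak ended past its chromosome in the GRCm38 sequence. TSSs came from GENCODE M21 (GRCm38.p6), and genes or pairs were counted as described in the report.

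Regions and genes were compared by counts, shares with 95% Wilson intervals, medians and Spearman's rho as descriptions. With 1 group no test between conditions exists. Window sequences came from GRCm38, and CpG ratios and motif matches were counted in them. Members, gene lists and motifs were chosen with earlier results of these data known. Pairs were named by rule: the 10 highest signals, the 10 shortest distances, all pairs on the bidirectional list, up to 10 with a blood, repair or cell cycle gene, up to 10 with no region in any list, members in no list of a replicate, pairs with 2 regions, and 3 on each side of 1000 bp. Not every pair so named is described, and some items are not reported here. The code was tested on simulated data. Python 3.11.15, pandas 2.3.3, scipy 1.17.1 and pysam 0.24.0 were used. Alternatives were other lists, each replicate's list, above-median signals, other TSS choices, distances of 500 and 2000 bp, membership by summit, other windows and 50% overlap.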

Additional observations from a re-analysis of the deposited data

How the results depend on the processing

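The number of divergent regions stayed within 1.5 times of 689 under every alternative run, and 8 of the 15 motifs had a larger share in divergent than in lone windows, or 7 to 11 under the alternatives; the window between the TSSs gave no such count, since lone genes have none. The share of pairs with a region was 95.1% in the replicated list, 95.2% in the pseudoreplicated list, 72.2% with regions of above-median signal only and 80.4% by summit. Leaving out a replicate gave 83.7% to 90.9%. Both TSSs in 1 region were found in 68.0% above the median signal, 73.4% at distances up to 2000 bp and 75.9% by summit, and in 75.2% to 84.2% by replicate. The median signal percentile was 81.2 in the other IDR thresholded list, 88.8 in the replicated and 90.1 in the pseudoreplicated list, and 71.6 to 74.9 by replicate. The median width was 794 to 950 bp by replicate. The share in replicate 2's list was 90.2% for members from the other IDR thresholded list, 86.5% from the replicated, 86.0% from the pseudoreplicated, 98.9% above the median signal, 87.2% at 50% overlap and 99.9% against replicate 2's pseudoreplicated list. The CpG ratio was 0.877 above the median signal, 0.897 and 0.868 at distances up to 500 and 2000 bp, 0.893 by summit, 0.834 in windows of ±250 bp, 0.779 in whole regions, 0.826 between the TSSs and 0.872 to 0.880 by replicate. The spread used to judge these moves came from 2 libraries. The cause of these moves was not tested, beyond the different lists, sites or windows that define each alternative. No paired analysis was possible because the series holds 1 group. Read depth is unknown, so peaks missing from a list are not shown to be absent.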
